A study of Drosophila melanogaster with 6 samples.

Results

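SF1-IR indirect flight muscle (IFM) was compared with WT IFM at 72 h after puparium formation (APF) for every gene and every exon bin that could be tested, with most attention to genes other than those of the sarcomere, the ribosomes and oxidative phosphorylation. The comparison used 4 of the 6 libraries of the series. The SF1-IR libraries came from Mef2-Gal4/SF1-RNAi (GD5176) flies and the WT libraries from Mef2-Gal4/+ flies, which carried the driver without a hairpin, with 2 libraries in each group. The remaining 2 libraries, Hrb87F-IR from Mef2-Gal4/Hrb87F-RNAi (TRiP.JF01757) flies, entered the fits only so that all 3 groups shared 1 estimate of the spread. Mef2-Gal4 is active in all muscle, so the hairpin was not limited to IFM. Flies were kept at 27 °C, polyA RNA was sequenced from pooled dissected IFM, and the study describes the SF1 knockdown as partial. The labels do not say that the 2 libraries of a group came from separate crosses, so the p-values below measure only the spread between these libraries.

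Splicing Factor 1 (SF1) binds the branch point of an intron early in spliceosome assembly, beside the U2af proteins that read the 3' splice site. IFM are the fibrillar muscles that power flight. Their isoforms depend on Bruno 1 (Bru1), a CELF-family RNA-binding protein, and their contraction on a very dense supply of mitochondria fed by trehalose and glycogen.

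Counts per exon bin were summed for each gene and scaled to the size of each library (CPM). CPM are not divided by gene length, so levels are compared between libraries and not between genes. Exon bins held 63393347 and 69067897 counts in the SF1-IR libraries and 72057010 and 64380951 counts in the WT libraries. A separate table of counts per gene followed these sums less closely in WT than in SF1-IR. Taken per gene on the log2 scale, the difference between the 2 sources had an SD of 0.332 and 0.342 in the SF1-IR libraries, against 1.01 and 1.30 in the WT libraries. Which of the 2 sources holds the right WT values could not be settled from the files, and the WT columns of one of them may come from another run. Every difference between SF1-IR and WT given here is one of the exon-bin counts. Values of named genes that turn round with the other table are given beside the gene. Markers of IFM were abundant, with the flight muscle actin Act88F at 31310 and 33299 CPM in SF1-IR and 47842 and 50247 CPM in WT. Testis markers summed to 12.97 and 174 CPM in SF1-IR and to 218 and 10.1 CPM in WT, so 1 library of each group was high. Their part in the results was not tested.

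SF1 itself was not detectably lower in the libraries labelled SF1-IR. Its level was 25.6 and 19.3 CPM in SF1-IR and 24.6 and 29.9 CPM in WT, and the groups overlapped. The log2 fold change was −0.28 ± 0.17 (SE), with an edgeR adjusted p of 0.473. None of the 7 tested bins of SF1 changed in use. Below, SF1-IR stands for the libraries so labelled, and no direction given here was checked against a measured loss of SF1 transcript.

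Genes with an edgeR adjusted p under 0.01 were called differentially expressed (DE). Of 11753 tested genes, 315 were DE, which is 2.68%, with 149 higher in SF1-IR (1.27%) and 166 lower (1.41%). Outside the sarcomere, ribosome and oxidative phosphorylation lists, 148 genes rose and 134 fell. The rises were the larger changes, with a median log2 fold change of 1.63 among genes that rose and −0.96 among those that fell. A change of at least 2 on the log2 scale was seen in 60 of the 149 genes that rose and in 6 of the 166 that fell. The median over all tested genes was −0.02. With the separate gene table, 31 of the 311 DE genes that could be fitted there had the opposite sign. Of the 282 DE genes outside those lists, 101 share exon bases with a gene on the opposite strand, and the strand setting of the counting is not given in the sources used here, so a gene and its antisense partner cannot be told apart.

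**Figure D1:**
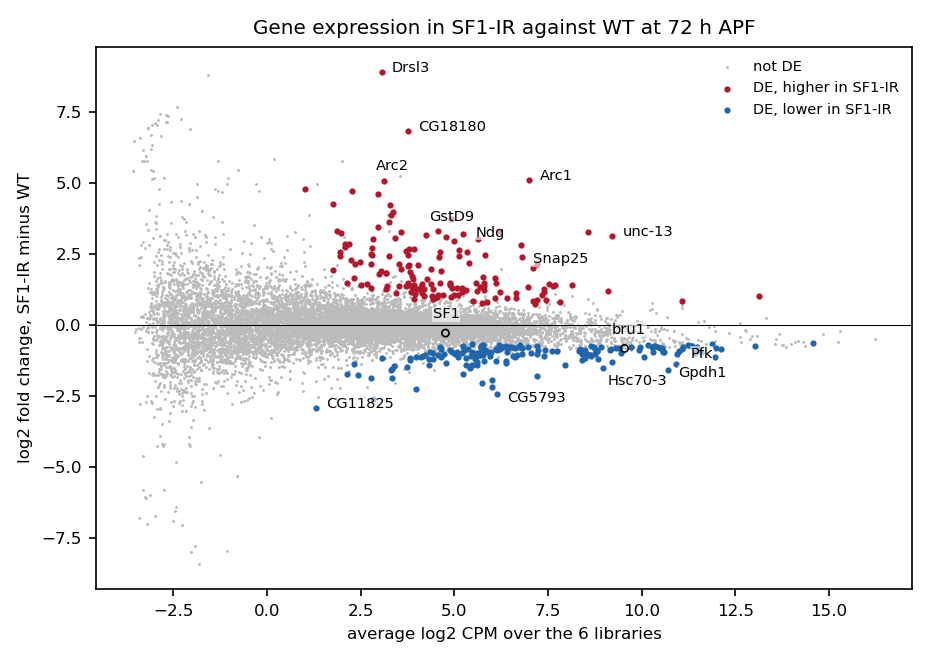
Log2 fold change of each tested gene (SF1-IR minus WT) against its average log2 CPM. DE genes that rose reach 8.92 and spread further from 0 than DE genes that fell, which reach −2.91. SF1 and bru1 are circled and are not DE.

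The largest rise was that of Drsl3, a drosomycin-like peptide gene on chromosome 3L. It was at 24.0 and 25.6 CPM in the SF1-IR libraries against 0.0602 and 0.0368 CPM in the WT libraries, where only 4 and 2 counts were seen. The ratio of CPM was 499.6, with an exact 95% interval of 229.3 to 1362 that covers counting error only. Drsl3 was also near 0 in the Hrb87F-IR libraries, at 0.0609 and 0.0275 CPM. CG18180, a gene of the trypsin-like protease family, followed, with 38.6 and 40.6 CPM in SF1-IR and 0.391 and 0.294 CPM in WT.

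Arc1 and Arc2 encode capsid-like proteins, derived from a retrotransposon Gag protein, that can package RNA and are best known from neurons and their synapses. Arc1 was at 359 and 373 CPM in SF1-IR and at 9.54 and 11.9 CPM in WT. Its log2 fold change was 5.09 ± 0.21 (SE), with an edgeR adjusted p of 0.000134. Arc2 stood at 22.6 and 25.5 CPM in SF1-IR and 0.361 and 1.07 CPM in WT, a log2 fold change of 5.09 ± 0.53. CR10102, annotated between them, was at 12.5 and 14.6 CPM in SF1-IR and 0.481 and 0.534 CPM in WT. The 3 genes are neighbours on chromosome 2R (BDGP6), with Arc1 at 14357927 to 14360297, CR10102 at 14360433 to 14361780 and Arc2 at 14361924 to 14362825. In the Hrb87F-IR libraries Arc1 was at 5.82 and 8.11 CPM, near WT. Arc1 consists of 1 exon bin, so its exon use could not be tested.

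A second pair of neighbours also rose together. CG2065 and Rdh1, members of the short-chain dehydrogenase family, lie next to each other on chromosome 2R, at 7663786 to 7665269 and 7665828 to 7667343. CG2065 was at 24.8 and 31.5 CPM in SF1-IR and 2.05 and 1.47 CPM in WT. Rdh1 was at 22.7 and 23.7 CPM in SF1-IR and 1.69 and 2.06 CPM in WT.

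The other genes among the 15 largest rises were Taf12L (log2 fold change 4.63), a relative of a TFIID subunit, CG10445 (4.78), Ote (4.26), an inner nuclear membrane protein, the mitochondrial cytochrome P450 Cyp12c1 (4.22), RnrL (3.87), the large subunit of ribonucleotide reductase, CG15784 (3.74), rad50 (3.45) and Tdh (3.32), a threonine dehydrogenase. CG15784 was at 75.6 and 81.5 CPM in SF1-IR and 6.38 and 5.34 CPM in WT (SE 0.14). Taf12L was at 18.6 and 24.98 CPM in SF1-IR and at 1.23 and 0.515 CPM in WT. In each group the library with more Taf12L was the one with the larger sum of testis markers, and their part in this difference was not tested. Scp1, a sarcoplasmic calcium-binding protein chosen after its values were seen, was the DE gene of highest level that rose, at 15171 and 12377 CPM in SF1-IR and 6133 and 7275 CPM in WT.

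**Figure D2:**
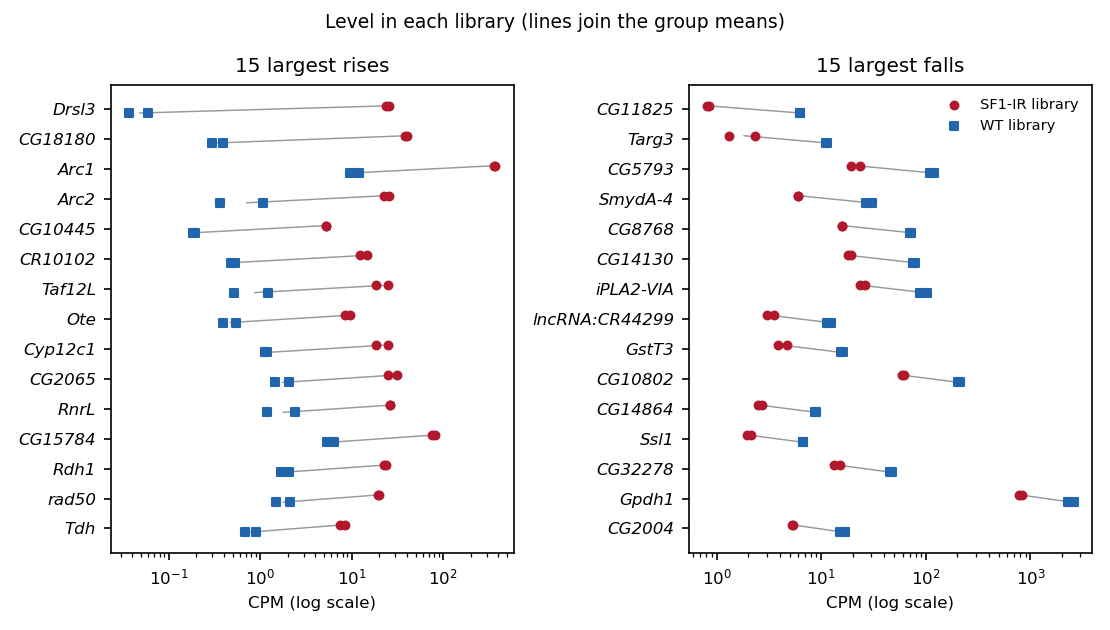
CPM of each library, on a log scale, for the 15 largest rises (left panel) and the 15 largest falls (right panel) that met the naming rule. Circles are the 2 SF1-IR libraries and squares the 2 WT libraries; the groups do not overlap in any row, which the rule required.

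The falls were led by CG11825, at 0.814 and 0.850 CPM in SF1-IR and 6.21 and 6.29 CPM in WT. In the Hrb87F-IR libraries CG11825 was lower still, at 0.274 and 0.192 CPM. Its log2 fold change of −2.91 did not hold with the separate table of counts per gene, where it was 0.0094. CG5793 fell at a higher level, with 19.4 and 23.5 CPM in SF1-IR and 109 and 119 CPM in WT. Of its 1633 exon bases, 492 overlap Obp93a on the opposite strand (log2 fold change −1.46, not DE). CG8768 stood at 15.9 and 15.8 CPM in SF1-IR, against 71.2 and 72.2 CPM in WT, and its log2 fold change was −2.17 ± 0.10 (SE). The replicates of CG8768 agree closely, while its Hrb87F-IR libraries lay above WT at 103 and 105 CPM. iPLA2-VIA, a calcium-independent phospholipase A2, was at 26.3 and 23.6 CPM in SF1-IR and 88.7 and 103 CPM in WT.

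SmydA-4, of the SET and MYND domain family, was at 5.998 and 6.0003 CPM in SF1-IR and at 26.6 and 30.8 CPM in WT. It was also below WT in the Hrb87F-IR libraries, at 13.9 and 10.1 CPM. Ssl1, a subunit of the general transcription factor TFIIH, was at 1.94 and 2.14 CPM in SF1-IR and 6.71 and 6.68 CPM in WT. Of its 1713 exon bases, 1036 overlap the antisense RNA asRNA:CR45970 (log2 fold change −1.47, not DE). The remaining named falls had log2 fold changes between −2.61 and −1.57. They were Targ3 (−2.61), CG14130 (−2.04), lncRNA:CR44299 (−1.86), the glutathione S-transferase gene GstT3 (−1.86), CG10802 (−1.77), CG14864 (−1.76), CG32278 (−1.71), Gpdh1 (−1.59) and CG2004 (−1.57). With the separate gene table lncRNA:CR44299 had the opposite sign, at 0.44.

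When each of the 4 libraries was left out in turn, 14 of the named genes stayed DE every time. They were Arc1, CR10102, Drsl3, CG18180, CG15784, CG2065, Cyp12c1, GstD9, Ndg and srl among the rises, and CG10802, CG14130, CG5793 and CG8768 among the falls. The number of DE genes over the whole table fell to 39 without SF1-IR replicate 1, 49 without WT replicate 2, 96 without SF1-IR replicate 2 and 149 without WT replicate 1.

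Genes that supply flight muscle with sugar-derived fuel fell together. In the list of glycolysis, the glycerol phosphate shuttle and glycogen, 11 of 23 tested members were DE, all lower, and 22 of 23 had a negative log2 fold change. The list median was −0.80, beside −0.02 over all tested genes. Gpdh1, the glycerol-3-phosphate dehydrogenase that regenerates NAD+ for glycolysis in flight, was at 779 and 836 CPM in SF1-IR and 2589 and 2273 CPM in WT. Its log2 fold change was −1.59 ± 0.11 (SE), with an edgeR adjusted p of 0.000916. Pfk, the phosphofructokinase that commits sugar to glycolysis, was at 981 and 1086 CPM in SF1-IR and 2590 and 2718 CPM in WT.

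Other members fell at different steps of the route. Pglym78, the phosphoglycerate mutase, was at 762 and 851 CPM in SF1-IR and 1546 and 1575 CPM in WT. Eno, the enolase, had a log2 fold change of −0.99 and Gapdh1 one of −0.85. On the storage side, Glys, the glycogen synthase, was at 183 and 205.3 CPM in SF1-IR and 451 and 450 CPM in WT, while Glyp, the glycogen phosphorylase, had a log2 fold change of −0.76. The branching enzyme AGBE (−0.82), UGP (−0.88) and Pgm1 (−1.02), which connect glucose phosphate to glycogen, and Treh (−0.87), which splits trehalose, fell as well. The gluconeogenic phosphatase fbp (−1.53) and the adenylate kinase Ak1 (−1.14) are in no list, were chosen after their values were seen, and also fell.

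The calls of this list depended on the fit and on single libraries, while its median stayed negative in every fit. With the separate gene table the list had a median of −1.30, with 11 members DE lower and 0 higher. It held 0 DE members without SF1-IR replicate 1, 1 without WT replicate 2 and 4 without either of the other 2 libraries, while the median stayed between −0.87 and −0.72. All 4 fits without a library used 1 sample in an arm, which is taken to vary like the other groups. With only SF1-IR and WT in the fit, which keeps all 4 libraries, this list held 0 DE members with a median of −0.74. The replicate number as a block also gave 0, with a median of −0.80. In the citric acid cycle, ER and aminoacyl-tRNA synthetase lists both of these fits gave 0 DE members as well.

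Pyruvate entry and the citric acid cycle followed, with 8 of 20 tested members DE lower, 1 DE higher and a median of −0.53. muc, the acetyltransferase of pyruvate dehydrogenase, was at 1929 and 1981 CPM in SF1-IR and 3674 and 3910 CPM in WT. Pdha, its alpha subunit, was at 1882 and 1824 CPM in SF1-IR and 3021 and 3052 CPM in WT. The pyruvate carrier Mpc1 (−0.78, and 0.056 with the separate gene table), the citrate synthase kdn (−0.72), the isocitrate dehydrogenase subunits Idh3a (−0.81) and Idh3b (−0.73), and the malic enzyme Men-b (−0.89) fell with them. Each of these calls was lost in every fit without 1 library, where the list held 0 DE members and medians from −0.61 to −0.41.

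Succinyl-CoA synthetase was divided. ScsbetaA, the ATP-forming beta subunit, fell (−0.65), with 2778 and 2884 CPM in SF1-IR and 4383 and 4500 CPM in WT. ScsbetaG, the GTP-forming beta subunit, rose (1.42 ± 0.17, SE), with 27.4 and 28.5 CPM in SF1-IR and 9.92 and 10.99 CPM in WT. Among 20 tested genes of fatty acid oxidation and lipid storage, 1 was DE, beside 2.68% over all tested genes. This was Etfb, the beta subunit of the electron transfer flavoprotein, at 48.5 and 47.0 CPM in SF1-IR and 119 CPM in both WT libraries.

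The mitochondrial import, dynamics and quality control list had 4 members higher and 2 lower of 31 tested, with a median of −0.18. srl, the fly PGC-1 coactivator of mitochondrial genes, was at 32.3 and 23.7 CPM in SF1-IR and 3.23 and 2.48 CPM in WT, a log2 fold change of 3.29 ± 0.23 (SE). The matrix protease Lon was at 281 and 258 CPM in SF1-IR and 105 and 116 CPM in WT. The mitochondrial chaperone Trap1 (1.12) and PolG1 (1.32), the mitochondrial DNA polymerase, also rose. Pink1, the kinase that marks damaged mitochondria, fell to 144 and 135 CPM in SF1-IR, against 258 and 263 CPM in WT. Chchd3 (−0.72), of the cristae-organizing complex, fell too. The inner membrane protease Afg3l2 (1.20) rose, and the phosphate carrier Mpcp1 (−1.02) and the transport adaptor Miro (−0.86) fell; these 3 are outside the list and were chosen after their values were seen.

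The following genes of heme and iron-sulfur synthesis belong to no list, were chosen after their values were seen and stand for themselves only. Nfs1, the cysteine desulfurase that supplies sulfur for iron-sulfur clusters, was at 282 and 320 CPM in SF1-IR and 64.8 and 72.3 CPM in WT. Its partner bcn92 (log2 fold change 0.97) and Nubp1 (1.12), which assembles clusters in the cytosol, rose too. Alas, which starts heme synthesis, fell (−0.85), while Coprox (1.46) and FeCH (1.41), which act late in it, rose. FeCH was at 316 and 338 CPM in SF1-IR and 111 and 135 CPM in WT. In the list of oxidative stress and iron genes, 2 of 27 tested members rose, Prx2 (1.35) and the ferritin subunit Fer2LCH (0.89), and 1 fell, Trx2 (−0.75). The list median was 0.12, and −0.43 with the separate gene table, where 1 member was DE higher and 4 lower.

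Endoplasmic reticulum (ER) chaperones and genes of the unfolded protein response had 7 of 26 tested members DE, all lower, and a median of −0.51. Der-1, a channel component of ER-associated degradation, was at 22.8 and 26.3 CPM in SF1-IR and 65.3 and 67.9 CPM in WT. Hsc70-3, the ER Hsp70 known as BiP, was at 398 and 351 CPM in SF1-IR and 808 and 1040 CPM in WT. Both genes were also below WT in the Hrb87F-IR libraries, Der-1 at 39.0 and 38.1 CPM and Hsc70-3 at 487 and 481 CPM. The other members that fell were Gp93 (−1.25), Ero1L (−0.996), Pdi (−0.80), Cnx99A (−0.79) and Hrd3 (−0.68). Other DE genes that fell, in no list and chosen after their values were seen, were meigo (−1.41), the co-chaperones P58IPK (−1.20) and Grp170 (−0.98), the coat protein Sec23 (−1.13), Tango1 (−1.02), GCS2alpha (−0.9998) and the GTPase Sar1 (−0.69). With the separate gene table the list median was 0.04 with 1 member higher and 0 lower, the member called higher being Hsc70-3 (0.96). Ero1L (0.33), Cnx99A (0.45), Hrd3 (0.20), meigo (0.29), P58IPK (0.69), Grp170 (0.073) and GCS2alpha (0.69) also had the opposite sign there. Without 1 library the list held 4 DE members (without WT replicate 1), 1 (without SF1-IR replicate 2) or 0.

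Genes of the integrated stress response moved both ways, with 2 of 22 tested members higher, 2 lower and a median of −0.03. Gadd45, a growth arrest and DNA damage gene that also stood in the cell death list, was at 65.2 and 53.3 CPM in SF1-IR and 19.4 and 23.1 CPM in WT. Irbp18, a bZIP protein that pairs with Xrp1, was at 26.8 and 27.2 CPM in SF1-IR and 12.05 and 10.1 CPM in WT. Asparagine synthetase, AsnS, fell to 6.08 and 7.05 CPM in SF1-IR, against 16.5 and 19.3 CPM in WT. Thor, the 4E-BP that restrains translation, fell to 96.4 and 79.5 CPM in SF1-IR, against 178 and 187 CPM in WT, but had the opposite sign with the separate gene table, at 0.41. In the Hrb87F-IR libraries AsnS, at 7.22 and 6.68 CPM, and Thor, at 35.8 and 39.3 CPM, were also below WT. Gadd45 was below WT there too, at 7.83 and 9.02 CPM, and Irbp18 was at 9.87 and 10.02 CPM. Thor was the only DE member of the insulin, TOR and growth list (24 tested), beside 2.68% DE over all tested genes. With the separate gene table this list held 5 members DE higher and 0 lower, and its median was 0.42, against −0.07 with the exon-bin counts.

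Genes of the machinery that makes ribosomes and charges tRNA leaned higher, with few calls. In the ribosome biogenesis and nucleolus list, 25 of 30 tested members had a positive log2 fold change, beside 5715 of 11753 tested genes. The list median was 0.41, and 2 members were DE, beside 2.68% over all tested genes. eIF6, which keeps the large subunit from joining too early, was at 24.7 and 30.6 CPM in SF1-IR and 6.77 and 6.42 CPM in WT. Sbds, which helps to remove eIF6, was at 24.1 and 22.6 CPM in SF1-IR and 8.35 and 9.62 CPM in WT. Of 18 tested aminoacyl-tRNA synthetases, 4 rose and 0 fell, with a list median of 0.48. TrpRS was at 58.1 and 66.98 CPM in SF1-IR and 26.6 and 28.6 CPM in WT. GlyRS (1.06), ThrRS (0.96) and AlaRS (0.95) were the others, and none of the 4 calls held in any fit without 1 library.

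The elongation factor eEF2 was the 1 DE gene among 32 tested translation factors, near the share of 2.68% over all tested genes. It was at 2808 and 3244 CPM in SF1-IR and 1623 and 1770 CPM in WT. The RNA chaperone La (1.66) and 2 ribosome rescue factors, HBS1 (1.48) and Clbn (1.34), rose as well, and were chosen after their values were seen.

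Of 27 tested core spliceosome genes, 4 rose, 0 fell and the median was 0.15. Brr2, the helicase that unwinds U4 from U6, was at 98.2 and 97.4 CPM in SF1-IR and 29.0 and 30.9 CPM in WT. Its log2 fold change was 1.71 ± 0.13 (SE), with an edgeR adjusted p of 0.00122. Prp6 was at 22.8 and 23.7 CPM in SF1-IR and 9.49 and 8.21 CPM in WT, and Prp31 (1.27) and CG6686 (1.07) rose as well. These 4 genes encode proteins of the tri-snRNP, which joins the spliceosome after branch point recognition. Without 1 library the list held 1 or 0 DE members, and with the separate gene table its median was −0.22 with 3 members DE higher.

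Of 14 tested genes of branch point and 3' splice site recognition, 0 were DE by edgeR (2.68% over all tested genes), 1 had an unadjusted p under 0.05, 1 was called by DESeq2 and the median was −0.14. Over all 11753 tested genes, 2309 had an unadjusted p under 0.05, and DESeq2 called 1074 genes. In this list CG9346 had the smallest p, with a log2 fold change of −0.70 and an edgeR adjusted p of 0.0242. CG9346 was at 15.8 and 17.8 CPM in SF1-IR and 25.6 and 28.9 CPM in WT. U2af50 was at 16.7 and 18.7 CPM in SF1-IR and 14.1 and 16.5 CPM in WT (log2 fold change 0.22), and had the opposite sign with the separate gene table, at −0.081. Spf45, a splicing factor of the same step, was at 9.24 and 9.03 CPM in SF1-IR and 7.37 and 5.36 CPM in WT (edgeR adjusted p = 0.268). Hrb87F, an hnRNP protein gene, was at 26.3 and 28.7 CPM in SF1-IR and 29.8 and 30.5 CPM in WT.

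Of 12 tested SR proteins and their kinases, 0 were DE by edgeR, 2 had an unadjusted p under 0.05 and 1 was called by DESeq2. Beside these stand 2309 of 11753 tested genes with such an unadjusted p, and 1074 genes that DESeq2 called. Of 11 genes of nonsense-mediated decay and the exon junction complex, 0 were DE by edgeR, 1 had an unadjusted p under 0.05 and 1 was called by DESeq2. The kinase gene SRPK was at 91.3 and 83.9 CPM in SF1-IR and 103.5 and 105.02 CPM in WT (log2 fold change −0.25, edgeR adjusted p = 0.208), with the opposite sign in the separate gene table, at 0.067. btz, of the exon junction complex, was at 10.7 and 10.1 CPM in SF1-IR and 16.01 and 15.79 CPM in WT (log2 fold change −0.61, edgeR adjusted p = 0.0391). CG7483, the eIF4AIII of that complex, was at 20.3 and 22.6 CPM in SF1-IR and 22.5 and 27.5 CPM in WT, and the groups overlapped.

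Of 21 muscle splicing regulators, 0 were DE by edgeR, 4 had an unadjusted p under 0.05 and 3 were called by DESeq2. Among all 11753 tested genes 2309 had such an unadjusted p, and DESeq2 called 1074 genes. With the separate gene table this list held 4 members DE higher and 1 lower, and its median was 0.44, against −0.01 with the exon-bin counts. bru1 missed the threshold narrowly, at 526 and 470 CPM in SF1-IR and 828 and 926 CPM in WT. Its log2 fold change was −0.82 ± 0.12 (SE), with an edgeR adjusted p of 0.0103, and the groups did not overlap. The helicase gene Rm62 was next, at 348 and 345 CPM in SF1-IR and 200 and 228 CPM in WT, with an edgeR adjusted p of 0.0108.

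The next genes rose, are in no list and were chosen after their values were seen, so no count of tested genes stands behind them as a group. RPA1, the large subunit of the protein that coats single-stranded DNA, was at 178 and 180 CPM in SF1-IR and 18.6 and 17.5 CPM in WT. Its log2 fold change was 3.31 ± 0.11 (SE), with an edgeR adjusted p of 0.000118. Irbp (Ku70) was at 9.95 and 8.87 CPM in SF1-IR and 0.858 and 1.14 CPM in WT, and its partner Ku80 was at 15.6 and 15.8 CPM in SF1-IR and 2.87 and 1.84 CPM in WT. The Ku pair binds broken DNA ends. FANCI (2.43), of the crosslink repair pathway, pic (2.42) and Xpc (2.19), which recognise damage, gkt (2.15), which frees trapped topoisomerase, the clamp loader RfC4 (1.47) and the ligase DNAlig3 (1.44) rose too.

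The telomere and heterochromatin list had 3 of 19 tested members higher and 0 lower, with a median of 0.13. They were rad50, mre11 (1.64) and ver (2.57), which protects chromosome ends. rad50 was at 19.8 and 19.3 CPM in SF1-IR and 1.49 and 2.10 CPM in WT, and mre11 at 30.7 and 32.9 CPM in SF1-IR and 9.99 and 10.4 CPM in WT. Rad50 and Mre11 belong to 1 complex that processes DNA breaks. RnrL, which makes deoxyribonucleotides, was the only DE member of the cell cycle and DNA replication list (28 tested, median −0.09), beside 2.68% over all tested genes. It was at 26.2 and 26.6 CPM in SF1-IR and 2.41 and 1.20 CPM in WT.

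Both subunits of the histone chaperone FACT rose. Ssrp was at 60.2 and 71.2 CPM in SF1-IR and 8.12 and 7.34 CPM in WT, and dre4 (Spt16) at 17.1 and 18.8 CPM in SF1-IR and 7.66 and 6.18 CPM in WT. Single genes that rose and were in no list were Cse1 (2.68), which recycles importin alpha, Nxt1 (2.47), an mRNA export factor, RanGAP (1.14), the lamin gene Lam (1.00) and Nup98-96 (0.86). Cse1 was at 30.5 and 30.2 CPM in SF1-IR and 4.33 and 5.12 CPM in WT. Fpps, the farnesyl diphosphate synthase, was at 93.0 and 88.3 CPM in SF1-IR and 15.6 and 14.9 CPM in WT. The genes of this paragraph were chosen after their values were seen.

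Detoxification enzymes moved in both directions within each family. Of 29 tested glutathione S-transferase genes 3 rose and 3 fell, and the median was 0.54. GstD9 was at 56.4 and 62.5 CPM in SF1-IR and 5.12 and 6.92 CPM in WT, a log2 fold change of 3.31 ± 0.21 (SE), and GstE1 (1.26) also rose. GstE13 fell to 21.05 and 23.8 CPM in SF1-IR, against 60.1 and 61.5 CPM in WT. Members of this family resemble each other in sequence, and how reads that match several copies were counted is not given in the sources used here.

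Of 24 tested UDP-glycosyltransferase genes 2 rose and 2 fell. Ugt50B3 (2.67) and Ugt302C1 (1.74) rose, and Ugt36D1 (−0.92) and Ugt37D1 (−0.93) fell. Of 72 tested cytochrome P450 genes 2 rose and 3 fell, with a median of −0.01. Cyp12c1 was at 18.7 and 25.02 CPM in SF1-IR and 1.20 and 1.14 CPM in WT, while in the Hrb87F-IR libraries it was at 6.12 and 5.75 CPM. Cyp9c1 (1.29) rose and Cyp4e1 (−1.04) and Cyp4ae1 (−1.09) fell, and Cyp4e1 had the opposite sign with the separate gene table, at 1.61. Cyp9c1 and Cyp4ae1 share exon bases with an annotated antisense RNA. The aldo-keto reductase CG10638, chosen after its values were seen, was at 924 and 1048 CPM in SF1-IR and 99.7 and 105 CPM in WT.

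The immune lists held few calls, near the share of 2.68% over all tested genes. Drsl3 was the only DE gene among 28 tested antimicrobial peptides, and Tep4, a thioester protein of the blood, the only one among 29 tested genes of immune recognition and signalling. Tep4 was at 26.1 and 26.2 CPM in SF1-IR and 4.78 and 3.74 CPM in WT. Among 24 tested genes of integrin adhesion and the extracellular matrix, 1 rose and 0 fell, beside 2.68% DE over all tested genes. This was Ndg, the nidogen of basement membranes, at 228 and 253 CPM in SF1-IR and 32.5 and 35.8 CPM in WT, a log2 fold change of 2.81 ± 0.13 (SE).

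Lists with 0 DE members by edgeR covered heat shock proteins (23 tested, 8 with an unadjusted p under 0.05, 2 called by DESeq2), the proteasome (32, 8 and 2), calcium handling (28, 9 and 4), muscle fate transcription factors (24, 5 and 0), autophagy (20, 3 and 3), the ecdysone response (19, 4 and 3) and the postsynaptic side of the neuromuscular junction (19, 0 and 0). In the proteasome list 22 of 32 members had a positive log2 fold change, with a median of 0.12, but with the separate gene table the median was −0.45 with 0 members DE higher and 3 lower. For comparison, 2309 of 11753 tested genes had an unadjusted p under 0.05, and DESeq2 called 1074 genes. With the separate gene table the heat shock list held 3 members DE higher and 1 lower, autophagy 2 and 0, and the ecdysone response 1 and 0. Listed symbols that matched no gene were not tested, among them usp, ftz-f1, Hr3, Hr39 and Kr-h1 of the ecdysone list. In the junction list GluRIIA, GluRIID and GluRIIE were among the symbols not matched. Hsp70Bb, 1 of several near-identical Hsp70 copies, was at 3156 and 2498 CPM in SF1-IR and 1613 and 1804 CPM in WT. CaMKII, the calcium-dependent kinase, was at 485 and 370 CPM in SF1-IR and 755 and 803 CPM in WT (edgeR adjusted p = 0.0166) but had the opposite sign with the separate gene table, at 3.77.

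The other members of smallest p in these lists missed the threshold as well. Prosalpha6 (log2 fold change 0.81, edgeR adjusted p = 0.0219) and Rpn11 (log2 fold change 0.76, edgeR adjusted p = 0.0179) belong to the proteasome. MCU, the mitochondrial calcium channel, was at 41.9 and 36.2 CPM in SF1-IR and 24.8 and 24.3 CPM in WT (edgeR adjusted p = 0.0228). Mitf, a transcription factor of lysosome genes, was at 54.2 and 40.2 CPM in SF1-IR and 23.5 and 25.6 CPM in WT (edgeR adjusted p = 0.0175), and the autophagy adaptor ref(2)P had a log2 fold change of 0.52 (edgeR adjusted p = 0.0440). The ecdysone list gave ImpL2 (log2 fold change 0.81, edgeR adjusted p = 0.0182) and the nuclear receptor Hr78 (log2 fold change −0.47, edgeR adjusted p = 0.0576). Droj2, a co-chaperone, had a log2 fold change of −0.37 (edgeR adjusted p = 0.0593).

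salm, the zinc finger factor that specifies fibrillar flight muscle, was at 121 and 113 CPM in SF1-IR and 148 and 178 CPM in WT (edgeR adjusted p = 0.0874). exd, a homeodomain factor of the same fate, had a log2 fold change of −0.34 (edgeR adjusted p = 0.138) and the opposite sign with the separate gene table, at 0.98. At the neuromuscular junction the BMP ligand gbb had a log2 fold change of −0.41 (edgeR adjusted p = 0.257) and the kinase Pak one of 0.37 (edgeR adjusted p = 0.262). Over the 33 pathway lists, the median had the opposite sign with the separate gene table in 12.

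**Figure D3:**
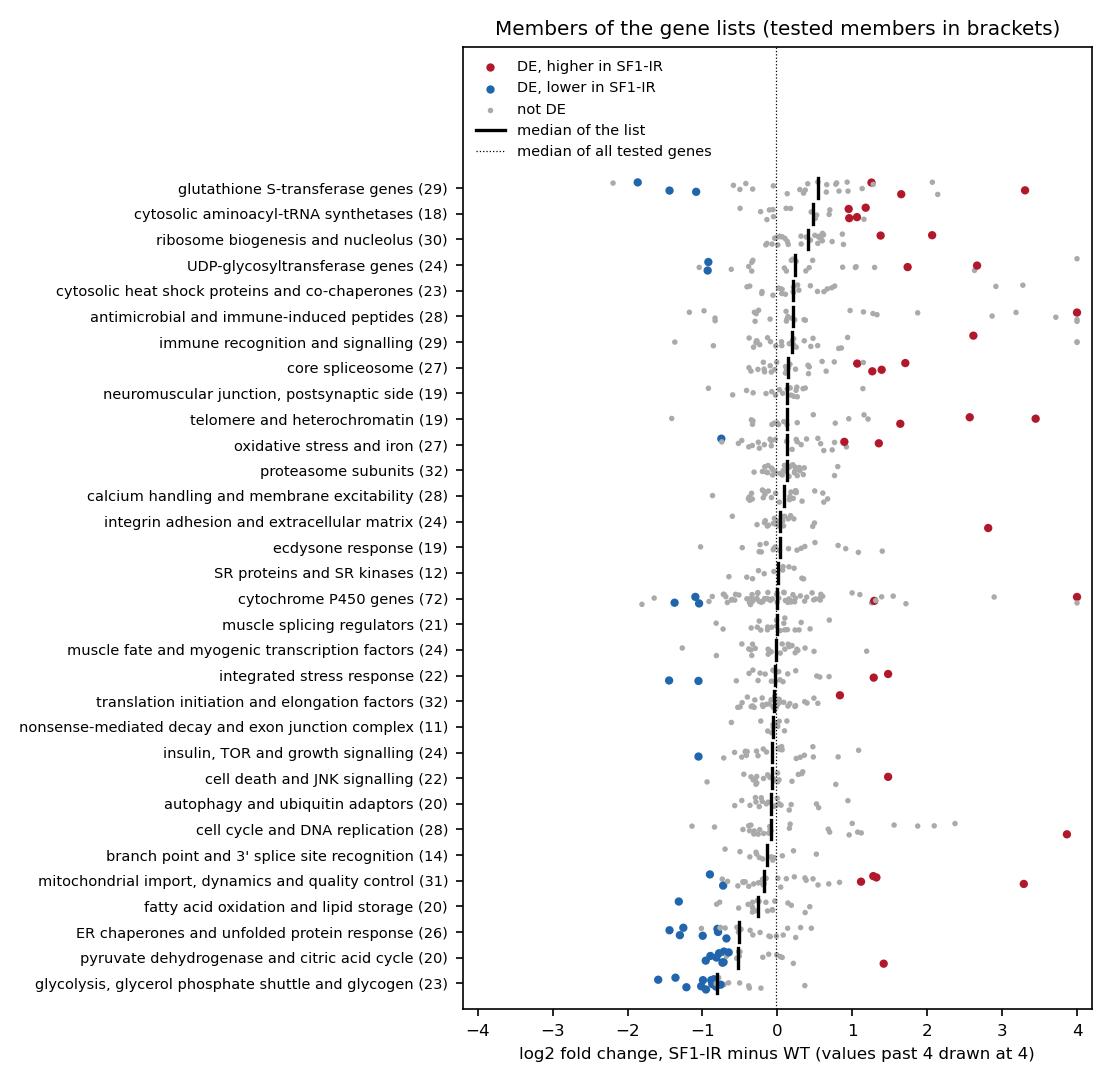
Log2 fold change (SF1-IR minus WT) of every tested member of each gene list, with a bar at the list median and a dotted line at the median of all tested genes. Fuel and ER lists lie to the left, with medians of −0.80, −0.53 and −0.51; most other lists have medians near 0 and single members far to the right.

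Among 15 neuron markers all had a positive log2 fold change and 2 were DE, unc-13 and Snap25, which prepare and carry out vesicle fusion at synapses. The summed level of the list was 2885 and 2252 CPM in SF1-IR and 934 and 1006 CPM in WT. Without unc-13 and Snap25 the other 13 summed to 1029 and 821 CPM in SF1-IR and 752 and 778 CPM in WT, so these 2 genes made up most of the difference. unc-13 was at 1579 and 1239 CPM in SF1-IR and 141 and 180 CPM in WT. Snap25 was at 278 and 192 CPM in SF1-IR and 40.7 and 48.1 CPM in WT. The part of nerve tissue in their rise was not tested in another way. Muscle markers summed to 208390 and 204310 CPM in SF1-IR and 277580 and 311130 CPM in WT. In pooled tissue, fewer cells of a type and less RNA in each cell cannot be told apart.

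Exon use was tested by setting the change of each exon bin against the other bins of its gene. An exon bin is a stretch of exon between annotated boundaries, and its log2 change in use is relative to its gene, so a change in the level of the whole gene does not count. Of 53818 tested bins, 523 had an edgeR p under 0.01 (0.972%), with 347 used more in SF1-IR (0.645%) and 176 used less (0.327%). With an adjusted p under 0.05 the number was 184 (0.342%). Outside the sarcomere, ribosome and oxidative phosphorylation lists, 404 bins in 253 genes changed, of which 245 were used more and 159 less. These were 0.774% of the 52194 bins tested there. An unadjusted threshold of 0.01 could let through a share of this size with no change in use, so single calls can be false. With an adjusted p under 0.05, 111 bins in 75 genes remained outside the lists, 65 used more and 46 less. The median absolute log2 change was 1.00 in these bins and 0.14 in all tested bins.

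Of the 404 changed bins, 67 (16.6%) lay in 32 DE genes, beside 3.22% of all bins tested outside the lists. This difference was not tested. Of the 404 bins, 45 had at most 3 counts in each WT library, and all 45 are among the 245 used more in SF1-IR. A bin so low in WT can hardly be called as used less, so this direction was fixed in advance. Changed bins were found in untranslated and in coding regions. The share that changed was 1.64% of 7026 tested 5'-UTR bins (82 used more, 33 less), 1.82% of 3293 3'-UTR bins (27 more, 33 less) and 0.524% of 25001 bins that hold coding sequence (84 more, 47 less). The median summed count of the tested bins was 173 in 5'-UTR, 408 in 3'-UTR and 371 in coding bins, and the differences between these shares were not tested.

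bru1 changed mainly in its 3'-UTR bins and within the gene. Of its 21 tested bins 9 changed, 3 used more and 6 less. The 3 bins used more are adjacent 3'-UTR bins, E022, E023 and E024, with log2 changes of 1.43, 1.45 and 1.38. E024 (chromosome 2L, 12312796 to 12313438) held 2.89 and 2.01% of the counts of bru1 in SF1-IR and 0.554 and 0.680% in WT. In CPM this bin was at 15.2 and 9.46 in SF1-IR and 4.59 and 6.29 in WT, so both SF1-IR libraries were above both WT libraries in this bin while the summed gene was lower without passing the threshold. Another pair of 3'-UTR bins, E019 and E020, was used less, with log2 changes of −0.60 and −0.62, as were E002 in the 5'-UTR (−0.40) and E005 (−0.94), E007 (−0.36) and E009 (−0.40) within the gene. Only E005 and the bins from E022 to E024 passed the adjusted threshold.

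Xrp1, a bZIP transcription factor known for responses to DNA damage and to loss of ribosomal protein genes, changed in its alternative 5' ends. E001 (chromosome 3R, 18914968 to 18915925), a 5'-UTR bin of the most upstream first exon, held 2.33 and 2.37% of the counts of the gene in SF1-IR and 10.9 and 11.8% in WT. Its log2 change in use was −1.58 ± 0.12 (SE), with an edgeR adjusted p of 6.51e-11. The downstream 5'-UTR bins E002 (0.60), E004 (1.40) and E006 (1.79), each within an annotated first exon, were used more. E004 held 3.11 and 2.67% in SF1-IR and 0.592 and 0.832% in WT. The total level of Xrp1 was 651 and 542 CPM in SF1-IR and 381 and 425 CPM in WT (log2 fold change 0.57, edgeR adjusted p = 0.0509).

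**Figure D4:**
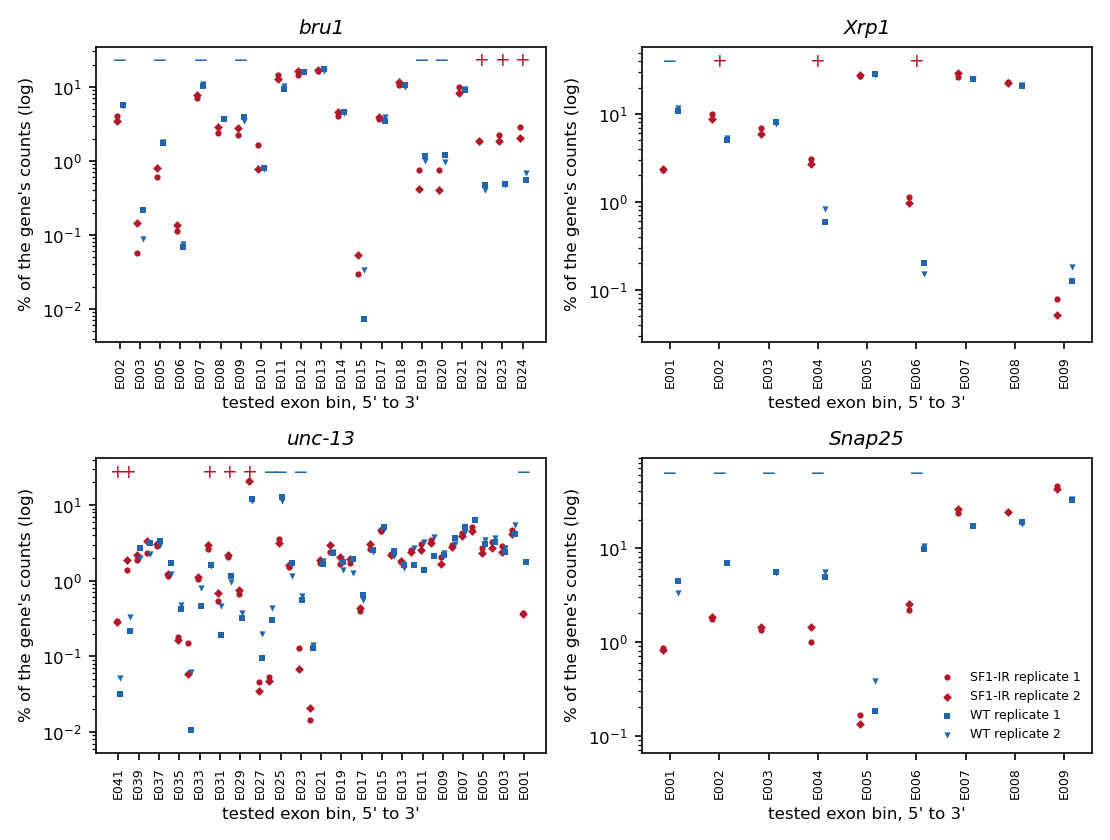
Share of the gene's counts in each tested exon bin of bru1, Xrp1, unc-13 and Snap25, on a log scale, with bins ordered 5' to 3' along the transcript. Plus and minus signs mark bins used more and used less in SF1-IR; the groups are well apart in the last 3 bins of bru1 and in the first bin of Xrp1 and of Snap25.

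In unc-13, 9 of 41 tested bins changed. Its 2 most upstream bins, E041 and E040 in the 5'-UTR, were used more, with log2 changes of 1.92 and 1.78, and E040 held 1.40 and 1.90% of the counts in SF1-IR and 0.213 and 0.328% in WT. The coding bins E028, E030 and E032 were used more as well. E028 held 20.8 and 20.98% of counts in SF1-IR and 11.9 and 11.4% in WT. E025, a long bin inside the gene (chromosome 4, 886965 to 892840), held 3.58 and 3.18% in SF1-IR and 12.6 and 11.2% in WT, and was used less (−1.25), as were E001, E023 and E026. In CPM E025 was at 56.6 and 39.4 in SF1-IR and 17.8 and 20.2 in WT, so it was higher in level while its share was lower.

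A pair of annotated RNAs on the opposite strand of unc-13 rose with it. asRNA:CR44029, chosen after its values were seen, was at 123 and 105 CPM in SF1-IR and 12.5 and 15.5 CPM in WT, and CR43361 at 80.3 and 77.4 CPM in SF1-IR and 12.5 and 12.6 CPM in WT. Bin E003 of CR43361 was used less (−2.01), and 104 of its 154 bases overlap unc-13 exons. Without a stated strand setting these counts cannot be assigned to either strand.

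Snap25 differed between its 5' and 3' parts. Its bins E001, E002, E003, E004 and E006 were used less, with log2 changes between −1.53 and −1.37. E006 held 2.19 and 2.52% of the counts in SF1-IR and 9.60 and 10.4% in WT. In CPM E006 was at 6.08 and 4.85 in SF1-IR and 3.91 and 4.99 in WT, so the higher total of Snap25 lay in the bins downstream, from E007 to E009.

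Both subunits of the E1 part of pyruvate dehydrogenase changed at a first exon. In Pdhb, E003 (chromosome 3R, 29113141 to 29113207), a 5'-UTR bin, held 5.97 and 4.73% of the counts in SF1-IR and 1.24 and 1.22% in WT, with a log2 change of 1.46 ± 0.11 (SE). In Pdha, E005 (chromosome X, 4702692 to 4702823) held 0.483 and 0.524% in SF1-IR and 0.0901 and 0.108% in WT, with a log2 change of 1.63. The total of Pdha was lower in SF1-IR (above), and that of Pdhb was 966 and 1072 CPM in SF1-IR and 1407 and 1511 CPM in WT (log2 fold change −0.52, edgeR adjusted p = 0.0315). Both bins were thus used more while Pdha fell and Pdhb did not pass the test.

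Rm62 changed in 7 of 19 bins. Its first-exon 5'-UTR bin E017 held 3.31 and 3.26% in SF1-IR and 0.737 and 0.717% in WT (log2 change 1.51), while the 3'-UTR bins E005 (−0.74) and E007 (−0.82) were used less. In CG9297, the coding bin E010, of 66 bases, held 2.09 and 2.16% in SF1-IR and 0.331 and 0.252% in WT (log2 change 2.01). In CG1674 on chromosome 4, E014 held 2.54 and 2.17% in SF1-IR and 0.518 and 0.629% in WT, and lies in an annotated last exon upstream of the end of the gene, while E020 was used less (−0.52).

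Among bins used less, Asph, an aspartyl beta-hydroxylase gene, lost use in 3 neighbouring coding bins, E011 (−1.58), E012 (−1.55) and E013 (−1.75). E013 held 0.411 and 0.237% in SF1-IR and 1.81 and 1.92% in WT. The coding bin E012 of Acsl, a long-chain acyl-CoA synthetase, held 0.592 and 0.548% in SF1-IR and 1.57 and 1.76% in WT. In Apt1, an acyl-protein thioesterase, E009 in a last exon held 2.46 and 2.22% in SF1-IR and 9.15 and 9.52% in WT, and the next bin E010 was also used less (−1.61). Bin E004 of FBgn0044510 had the largest named loss, at 0.287 and 0.285% in SF1-IR and 5.19 and 4.52% in WT.

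**Figure D5:**
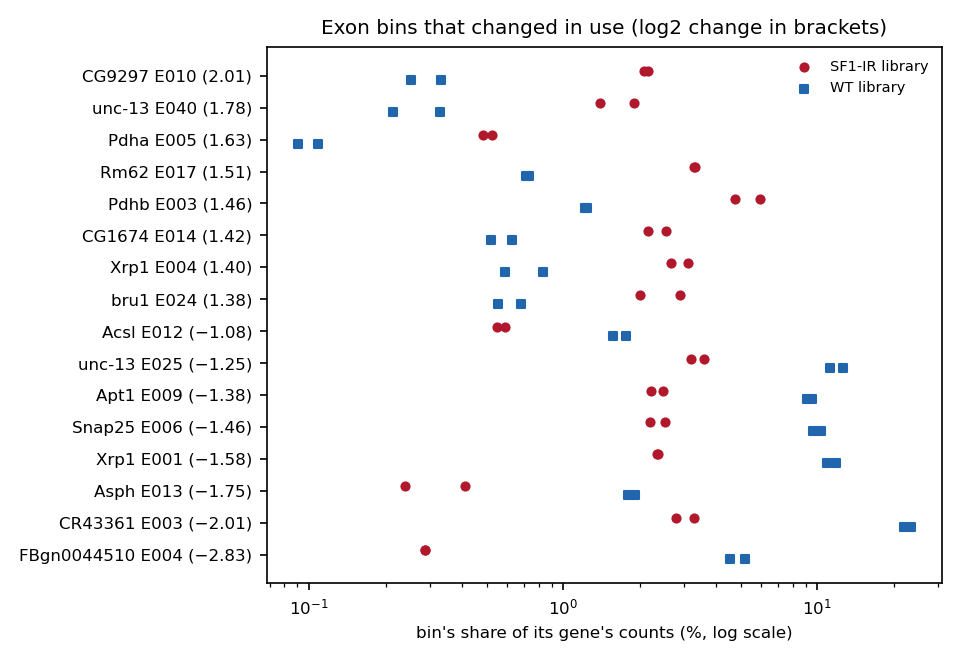
Share of each named exon bin in its gene's counts, on a log scale, with the log2 change in use in brackets. Circles are SF1-IR libraries and squares WT libraries; the 2 groups do not overlap in any of the 16 bins, which choosing them by p favours.

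The gene with the most changed bins outside the 3 lists was hlk, with 14 of 34, of which 11 were used more and 3 less. The 11 bins used more are short coding bins between E002 and E014 with log2 changes from 0.36 to 0.60. Of these 14 bins 2 passed the adjusted threshold. Svil, the supervillin gene, changed in 8 of 38 bins, of which 1 passed it. Both were chosen after their values were seen. Of 253 genes with a bin changed at the unadjusted threshold, 70 had at least 2 and 38 had bins that changed in both directions. In Hrb87F, E003 was used less at the unadjusted threshold only (−0.85, edgeR adjusted p = 0.657), and none of the tested bins of U2af50 changed.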

How the data were processed

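The authors mapped paired-end reads of polyA RNA with STAR 2.7.3a to the BDGP6 genome and counted them with featureCounts (Subread 2.0.0), per the labels and the study's methods. The deposited counts, per exon bin and per gene, are raw. A read that covers several bins counts in each, so a gene's summed bins can exceed its number of reads. In WT replicate 2, however, all bins summed to 64380951, below the 112295405 of the counts per gene. The authors' fold changes and p-values (DESeq2 and DEXSeq comparisons) were not used, apart from the positions of bins in other columns of 1 of these files. Those files also hold 8 count columns, which were not used.

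Bins were summed per gene over all 6 libraries, filtered with filterByExpr and TMM-scaled. The factors were 1.10 and 1.14 in SF1-IR and 0.922 and 0.844 in WT. Genes were tested with the robust quasi-likelihood test of edgeR 4.0.16 and Benjamini-Hochberg adjustment. Bins were tested with diffSpliceDGE, since DEXSeq was not installed; thresholds follow the study (0.01). The average log2 CPM uses a prior count of 2. On simulated counts for this comparison, the gene test called 17 of 62 genes changed by 1 on the log2 scale, 34 of 60 changed by 2 and 5 of 11046 unchanged genes, and the bin test called 154 of 200 bins changed by 2 and 267 of 50046 unchanged bins.

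Named genes were SF1, Arc1, bru1, Hrb87F, U2af50, the 15 largest rises and falls among DE genes outside the 3 excluded lists with an average log2 CPM of at least 1 and no overlap between SF1-IR and WT, and per list up to 4 DE members, or 2 members where none was DE, with the smallest p. Named bins were the 8 of smallest p in each direction with an adjusted p under 0.05 and at least 10 counts in every library of either group, at most 1 per gene and direction. Other names are marked in the text, and 1 gene that met the rule is not reported here. The comparison and the gene lists were chosen with earlier results of these data known. Listed symbols that matched no counted gene were left out, such as crc of the integrated stress response and elav, ChAT and futsch of the neuron markers. Bin classes come from the BDGP6 annotation of Ensembl, where 97.2% of bins start or end at an annotated exon boundary. Alternatives covered normalisation, filters, tools, the samples in the fit, the replicate number as a block and each library left out.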

Additional observations from a re-analysis of the deposited data

How the results depend on the processing

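The number of DE genes, 315 in the fit used above, depended strongly on the processing. It was 1074 with DESeq2 (1.42.0), 483 with no filter, 765 with at least 10 counts in every library, 876 at an adjusted p under 0.05 and 927 with the separate counts per gene. It was 30 with only SF1-IR and WT in the fit, and 39 to 149 when 1 library was left out. The replicate number as a block gave 45, and the crossed pairing, added after seeing the data because the replicate differences of SF1-IR and WT correlated at −0.735, gave 108. The differences correlated at −0.558 between Hrb87F-IR and WT and at 0.514 between SF1-IR and Hrb87F-IR, and the labels do not say that a number marks a shared batch, so the samples were not treated as paired. All 315 genes were called by DESeq2 and with no filter, and 167 with the counts per gene, 165 of them in the same direction. DE genes that fell made up 52.7% in the fit used above, 62.9% with DESeq2, 46.9% with RLE scaling and 13.3% with only SF1-IR and WT.

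Of the 78 named DE genes all kept their direction in each setting in which they were fitted, except with the counts per gene, where 70 of 76 did. The named DE genes that turned round there were Ero1L (0.33), Cyp4e1 (1.61), Thor (0.41), Hsc70-3 (0.96), lncRNA:CR44299 (0.44) and CG11825 (0.0094). Among named genes that were not DE, U2af50 (−0.081), SRPK (0.067), exd (0.98) and CaMKII (3.77) turned round. The cause was not tested. The number of changed exon bins, 523, was 918 with limma's diffSplice and 184 at an adjusted p under 0.05, and lay between 421 and 515 when 1 library was left out and at 389 with the replicate block. With 2 libraries per group, changes near 1 on the log2 scale were often missed in simulation. Context of the 3' splice sites, and its alternatives with windows of other lengths, were not run.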
